A study of Mus musculus with 6 samples.

Results

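The cAMP response element binding (CREB) pathway was described in mouse hippocampus after a seizure through 10 genes taken by symbol from the 23361 gene rows of an FPKM table (sequenced fragments divided by transcript length and by the number mapped in that library). They are the DNA-binding factors Creb1, Crem and Atf1, the coactivators Crtc1, Crtc2 and Crtc3, the acetyltransferases Crebbp and Ep300, and the kinases Sik1 and Sik2. All 10 genes had a row, and all 10 averaged 1 FPKM or more over the 6 libraries and so were tested, as were 12533 genes in all. The study compared Tet1Δe4-/- mice, which are homozygous for a deletion in Tet1 and are called Tet1-deficient here, with Tet1+/+ mice, called wild-type. Tet1 encodes an enzyme that oxidises methylated cytosine in DNA. Mice of both genotypes had received the same electroconvulsive shock (18 mA at 100 Hz in pulses of 0.2 ms for 1.15 seconds), and whole hippocampus was taken 1.5 to 2 hours afterwards from 3 mice of each genotype. The labels give neither age nor strain, and name no promoter or Cre that would restrict the mutation to a cell type. Libraries of unshocked mice were not analysed here, so the size of any induction was not measured.

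CREB sits on the cAMP response element of its target genes, and in neurons calcium and cAMP signals raised by firing switch it on. Phosphorylation of CREB recruits the acetyltransferases CBP and EP300, the products of Crebbp and Ep300. Dephosphorylated Crtc proteins enter the nucleus and join CREB at the DNA. Sik kinases phosphorylate Crtc proteins and hold them in the cytoplasm. Crem and Sik1 are known as genes that CREB itself induces, and both then act as brakes: an internal promoter of Crem gives rise to the short repressor ICER, and Sik1 removes Crtc from the nucleus. The other 8 genes are known mainly as constitutively transcribed, with their proteins regulated by phosphorylation.

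For all 10 genes the 95% interval of the difference between genotypes included 0. Of the 10, 0 passed an adjusted p of 0.05 in limma, where 4 of 12533 tested genes (0.0319%) passed. At an unadjusted p under 0.05 the count was also 0, against 1.36% of tested genes. In 0 of the 10 did the groups fail to overlap, against 4.13% of tested genes. Induced and constitutive genes alike differed between libraries within each genotype. On the deposited scale Crem and Sik1 were not high in the same libraries. With GC content and length removed, both had a higher mean in a pair of libraries than in the rest (0.22 and 0.24 on the log2 scale, below).

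The libraries fell into separate groups that crossed the genotypes. Wild-type replicate 1 and Tet1-deficient replicate 1 stood apart from the other 4 on the first principal component of the tested genes, which held 53.3% of the variance. Their positions on it were 26.7 and 27.9, and the other 4 lay between -15.5 and -10.5. Replicate numbers are names given in sample order and pair no mice. Xist, the RNA of the inactive X chromosome, measured 63.5 FPKM in wild-type replicate 1 and at most 0.202 FPKM in the other 5 libraries. By this measure the wild-type group held 1 female library and the Tet1-deficient group none. The part of sex in the genotype comparison was not tested. Tet1 itself ranged from 0.718 to 0.977 FPKM in wild-type and from 0.638 to 0.740 FPKM in Tet1-deficient libraries. A value over the whole gene does not check the loss of 1 exon. Summed markers of excitatory neurons, Camk2a included, checked the tissue and lay at 1970 to 2045 FPKM in wild-type and, without overlap, at 2191 to 2259 FPKM in Tet1-deficient libraries. Without Camk2a the other 4 summed to 776 to 853 FPKM in wild-type and 844 to 857 FPKM in Tet1-deficient libraries, and the groups overlapped. Inhibitory neuron markers summed to 157 to 182 FPKM. Choroid plexus markers summed to 300.3 FPKM in wild-type replicate 3 and 192 FPKM in Tet1-deficient replicate 2, and to between 7.01 and 21.2 FPKM elsewhere. Their part in the results was not tested. Read depth is unknown, since FPKM does not keep it.

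**Figure D1:**
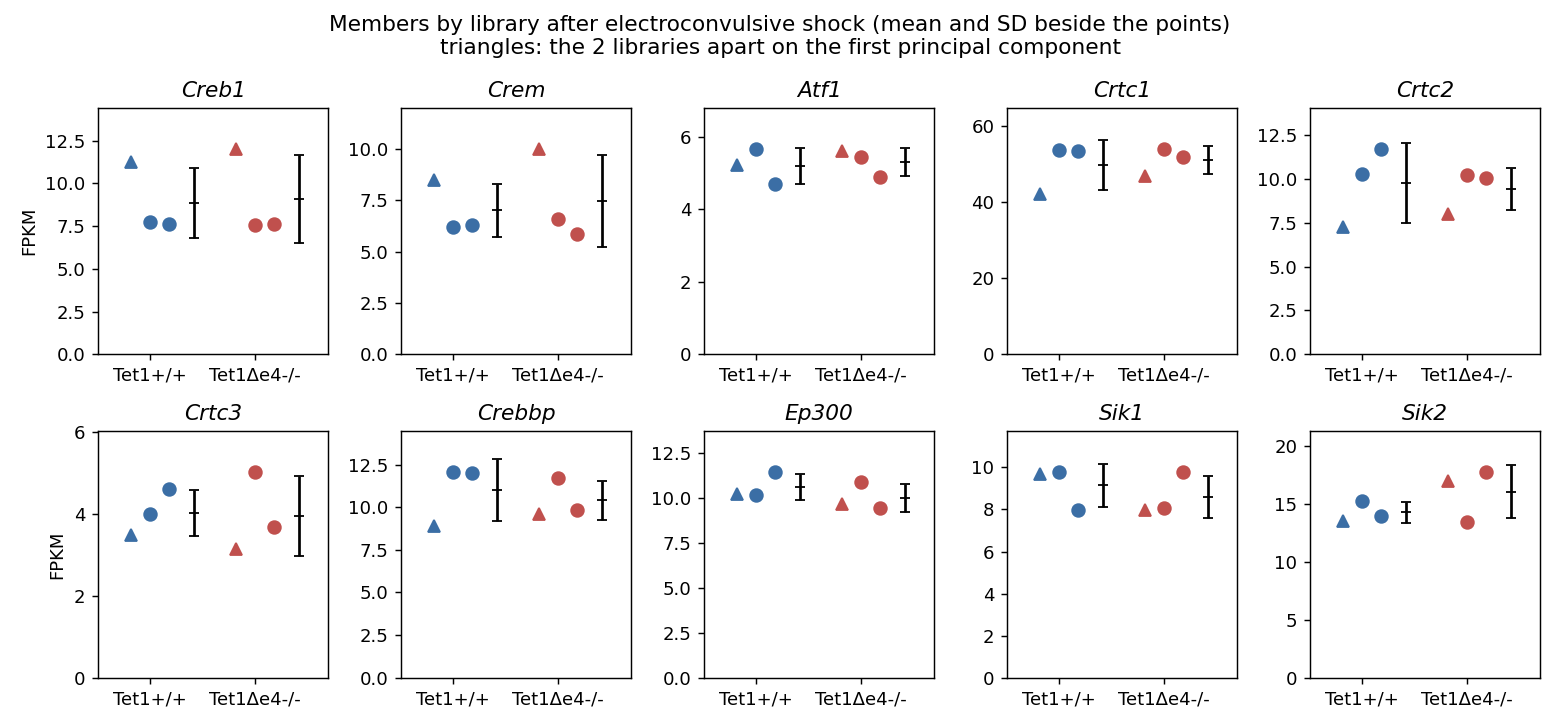
FPKM of each of the 10 genes (y axis, from 0) in the 3 wild-type (blue) and 3 Tet1-deficient (red) libraries, with the mean and SD of each genotype beside the points and triangles for the 2 libraries apart on the first principal component. The triangles lie above all circles for Creb1 and Crem and below all circles for Crtc1, Crtc2, Crtc3 and Crebbp, while the colours overlap for every gene.

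Crtc1 stood out in level. FPKM is per length, so levels were set side by side, as an approximate order only. The ratio of Creb1 to Crebbp ran from 0.636 to 1.26, so the order of close genes changed between libraries. Part of the Sik2 value cannot be assigned with certainty (below). Crtc1 averaged 50.4 FPKM over the 6 libraries and lay at the 87.5th percentile of tested genes. Sik2 followed at 15.2 FPKM, and its lowest library (13.5 FPKM) was above the highest of any remaining gene of the set (12.1 FPKM, Crebbp). Crebbp (10.7 FPKM), Ep300 (10.3), Crtc2 (9.61), Creb1 (8.97), Sik1 (8.88) and Crem (7.24 FPKM) came next, and each overlapped its neighbour in this order. Atf1 averaged 5.25 FPKM, and its highest library (5.68 FPKM) was just under the lowest library of Crem (5.84 FPKM). Crtc3 was lowest at 3.99 FPKM, with a range that overlapped that of Atf1. The induced genes Crem and Sik1 thus lay among the constitutive ones in level at this time, at the 37.8th and 43.9th percentiles of tested genes.

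Among the DNA-binding factors, Creb1 and Crem were high in the same 2 libraries, 1 of each genotype. Creb1, the founding activator, measured 11.2, 7.74 and 7.64 FPKM in wild-type replicates 1 to 3 and 12.03, 7.54 and 7.61 FPKM in Tet1-deficient replicates 1 to 3, the order used for all genes below. The gene lies on chromosome 1 from 64532645 to 64604548 (GRCm38, GENCODE M21). The 4 libraries other than the pair of replicates 1 thus spanned 7.54 to 7.74 FPKM, and the pair was 1.52-fold higher on average. The genotype means were 8.87 ± 2.04 and 9.06 ± 2.57 FPKM (SD, n = 3), with a log2 difference (Tet1-deficient minus wild-type, on log2(FPKM + 1), here and below) of 0.018, SE 0.212 and a 95% interval from -0.49 to 0.52.

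Crem, which encodes activators and the repressor ICER, measured 8.50, 6.21 and 6.30 FPKM in the 3 wild-type libraries, against 10.01, 6.56 and 5.84 FPKM in the 3 Tet1-deficient ones. The 2 libraries apart were again highest, on average 1.49-fold above the other 4. The genotype means were 7.004 ± 1.30 and 7.47 ± 2.23 FPKM (SD, n = 3), and the log2 difference was 0.062 with an interval from -0.42 to 0.54. Permuting the 6 libraries in an exact two-sided test gave p = 0.8; with 3 against 3 no p under 0.1 can be reached. The ratio of Creb1 to Crem stayed between 1.15 and 1.32 in the 6 libraries. The value of Crem sums over isoforms: of 39 annotated transcripts, 13 begin in the downstream part of the gene, beyond its midpoint, so ICER was not measured separately. Crem lies on chromosome 18 from 3266048 to 3337748 (GRCm38, the mm10 assembly, GENCODE M21). Its exons share 472 of 5895 bases with Gm6225 on the opposite strand, and as the strand setting is not given in the sources used here, reads of these partners cannot be told apart.

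Atf1, a close relative of Creb1 that binds the same element, showed no such split. It measured 5.22, 5.68 and 4.69 FPKM in the 3 wild-type libraries, against 5.61, 5.45 and 4.88 FPKM in the 3 Tet1-deficient ones. Its spread over the 6 libraries (SD of log2(FPKM + 1), 0.0931) lay at the 21.4th percentile of tested genes, against the 86.8th for Creb1 and the 84.8th for Crem. The log2 genotype difference of Atf1 was 0.028, with an interval from -0.21 to 0.27.

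On the deposited scale the Crtc coactivator genes ran opposite to Creb1 and Crem across libraries. With GC content and length removed this no longer held for Crtc1 and Crtc3 (below). Crtc1, the form that predominates in brain, measured 42.3, 53.7 and 53.5 FPKM in the 3 wild-type libraries, against 47.0, 54.1 and 52.0 FPKM in the 3 Tet1-deficient ones. The gene lies on chromosome 8 from 70382355 to 70439579 (GRCm38, GENCODE M21). It was lowest in the 2 libraries apart, at 0.837 of the mean of the other 4. The genotype means were 49.8 ± 6.55 and 51.0 ± 3.66 FPKM (SD, n = 3), with a log2 difference of 0.040 and an interval from -0.25 to 0.33.

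Crtc2, best known from hormone control of glucose production in liver, measured 7.29, 10.3 and 11.7 FPKM in the 3 wild-type libraries, against 8.03, 10.2 and 10.1 FPKM in the 3 Tet1-deficient ones. Its 2 lowest values were again those of replicate 1 of each genotype, at 0.724 of the other 4. Crtc3 measured 3.49, 3.99 and 4.60 FPKM in the 3 wild-type libraries, against 3.14, 5.02 and 3.68 FPKM in the 3 Tet1-deficient ones. The 2 libraries apart were lowest here too, at 0.766 of the other 4. The log2 genotype difference was -0.031 for Crtc2 (interval -0.45 to 0.39) and -0.036 for Crtc3 (interval -0.42 to 0.35). Crtc1 made up 76.6% to 80.8% of the summed Crtc FPKM, a share that its high level largely fixes. The ratio of Crtc1 to Crtc2 ran from 4.56 to 5.85 and that of Crtc1 to Crtc3 from 10.8 to 15.0 over the 6 libraries.

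Of the acetyltransferase genes, Crebbp followed the Crtc genes on the deposited scale and Ep300 did not. Crebbp measured 8.91, 12.1 and 12.02 FPKM in the 3 wild-type libraries, against 9.61, 11.7 and 9.84 FPKM in the 3 Tet1-deficient ones. The 2 libraries apart were lowest, with Tet1-deficient replicate 3 close above them. Ep300 measured 10.2, 10.2 and 11.5 FPKM in the 3 wild-type libraries, against 9.68, 10.9 and 9.48 FPKM in the 3 Tet1-deficient ones, so the libraries apart lay inside the range of the others. The genotype means of Crebbp were 10.998 ± 1.80 and 10.4 ± 1.17 FPKM and those of Ep300 10.6 ± 0.727 and 10.02 ± 0.756 FPKM (SD, n = 3). The log2 difference was -0.067 for Crebbp (interval -0.40 to 0.27) and -0.078 for Ep300 (interval -0.31 to 0.15). The ratio of Ep300 to Crebbp ran from 0.844 to 1.15, and that of Creb1 to Crebbp from 0.636 to 1.26.

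Sik1, the induced kinase of the pair, had, on the deposited scale, neither the pattern of Crem nor that of the Crtc genes. The gene lies on chromosome 17 from 31844250 to 31855804 (GRCm38, GENCODE M21) and overlaps no other annotated gene. It measured 9.69, 9.78 and 7.98 FPKM in the 3 wild-type libraries, against 7.99, 8.07 and 9.77 FPKM in the 3 Tet1-deficient ones. Its 3 high values, all within 9.69 to 9.78 FPKM, thus came from wild-type replicates 1 and 2 and Tet1-deficient replicate 3, and the other 3 libraries lay between 7.98 and 8.07 FPKM. The 2 libraries apart were split between these levels, and their mean was 0.994 of the mean of the other 4. The genotype means were 9.15 ± 1.01 and 8.61 ± 1.00 FPKM (SD, n = 3), the log2 difference was -0.078 (interval -0.36 to 0.21), and the exact two-sided permutation p was 0.9.

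Sik2, the constitutive kinase of the pair, measured 13.5, 15.3 and 14.01 FPKM in the 3 wild-type libraries, against 17.0, 13.5 and 17.8 FPKM in the 3 Tet1-deficient ones. The 2 highest libraries were Tet1-deficient, but the lowest was as well. The log2 difference of 0.15 was the largest of the 10 in size (SE 0.123, interval -0.14 to 0.44, unadjusted p 0.255, adjusted p 1.00 in limma). With 1 library left out at a time its lowest value was 0.080, when Tet1-deficient replicate 3 was omitted, and its highest 0.27, when replicate 2 of that genotype was. Omitting wild-type replicate 1 gave 0.12, smaller in size than the -0.21 of Crtc2. Sik2 exceeded Sik1 by 1.40-fold to 2.12-fold in every library. Its exons share 1429 of 9539 bases with Ppp2r1b on the opposite strand, so part of its value cannot be assigned with certainty. The remaining relative Sik3, chosen after its values were seen, measured 29.8, 48.5 and 48.7 FPKM in the 3 wild-type libraries, against 31.1, 53.0 and 38.2 FPKM in the 3 Tet1-deficient ones, so it too was lowest in the 2 libraries apart.

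**Figure D2:**
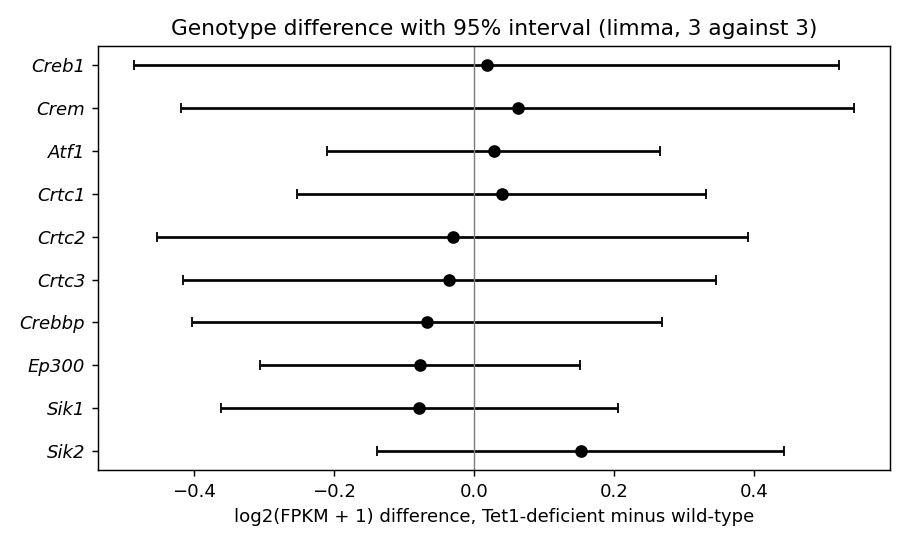
Difference in log2(FPKM + 1) between Tet1-deficient and wild-type hippocampus (x axis) for the 10 genes (y axis), as the limma estimate and its 95% interval from 3 against 3 libraries. Every interval includes 0, and the estimates run from -0.078 (Sik1) to 0.15 (Sik2).

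Across the set, Tet1-deficient hippocampus had higher means for 5 genes and lower means for 5, and the median log2 difference was -0.0065 against 0.0055 for all tested genes. The intervals bound the change these libraries would still allow. On the upper side they reach furthest for Crem (0.54) and Creb1 (0.52), and on the lower side for Creb1 (-0.49) and Crtc2 (-0.45). The 3 widest intervals were those of Creb1, Crem and Crtc2, which also had the 3 largest differences between the 2 libraries apart and the other 4. With the split as a term in the model, which was added with the data in view, 0 of the 10 genes passed. The split is balanced over the genotypes, so this term leaves the estimates as they were and changes their intervals, to -0.10 to 0.14 for Creb1, -0.11 to 0.23 for Crem, -0.21 to 0.15 for Crtc2 and -0.33 to 0.17 for Sik1. In the 4 other libraries alone, also chosen after the data were seen, Crem had a log2 difference of -0.013 and Sik1 of 0.0071, and 0 of the 10 passed.

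On the deposited scale, spread between libraries did not follow the division into induced and constitutive genes. Spread was not computed with GC content and length removed. There the mean differences of the 2 libraries apart were 0.22 for Crem and 0.24 for Sik1 (below). Crem varied 1.71-fold from its lowest to its highest library, Creb1 1.59-fold, Crtc2 1.61-fold and Crtc3 1.60-fold, whereas Sik1 varied 1.23-fold, close to Ep300 (1.21-fold) and Atf1 (1.21-fold). The spread of Sik1 lay at the 43.8th percentile of tested genes. Fos, the immediate early gene with a well-known cAMP response element, measured 39.3, 20.4 and 15.9 FPKM in the 3 wild-type libraries, against 31.8, 15.2 and 27.5 FPKM in the 3 Tet1-deficient ones. It varied 2.58-fold, at the 98.7th percentile of spread, and was highest in the same 2 libraries as Creb1 and Crem. On the deposited scale Sik1 did not share that order. Tet1-deficient replicate 1, the library with the 2nd highest Fos value, had 1 of the 3 low values of Sik1. The libraries form clusters of 2 and 4, each too small to test a correlation across libraries, so relations with Fos were not tested.

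Cell type markers and transcript GC content moved with the library split. Summed astrocyte markers lay at 411 to 457 FPKM in the 2 libraries apart and at 356 to 395 FPKM in the other 4, and microglial markers at 52.0 to 56.1 and 45.5 to 50.01 FPKM. The marker sums of the other 6 listed cell types overlapped. Over the 11811 tested genes with an annotated transcript (94.2%), the log2 difference of the 2 libraries apart from the other 4 had a Pearson r of -0.633 with the GC content of the longest transcript, across genes that are not independent. Creb1 (39.6% GC) and Crem (43.2%) lie at the 4.7th and 16.6th percentiles of GC content, and Crtc1 (56.5%), Crtc2 (54.5%) and Crtc3 (57.0%) at the 83.9th, 74.6th and 86.1st. Sik1 has 55.0% GC and a difference of -0.0082. The part of GC content or of these cell types in the split was not tested. After each library's trend on GC content and length was removed, a step added after the data were seen, the difference went from 0.55 to 0.19 for Creb1, from 0.50 to 0.22 for Crem, from -0.42 to -0.23 for Crtc2 and from -0.27 to -0.081 for Crebbp. For Crtc1 it turned from -0.25 to 0.092 and for Crtc3 from -0.30 to 0.015, and Sik1 went from -0.0082 to 0.24. On that scale the mean differences of Crtc1 and Crtc3 were no longer opposite in sign to those of Creb1 and Crem. Those of Crtc2 and Crebbp still were, and that of Sik1 was close to that of Crem. Single libraries were not compared on that scale.

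**Figure D3:**
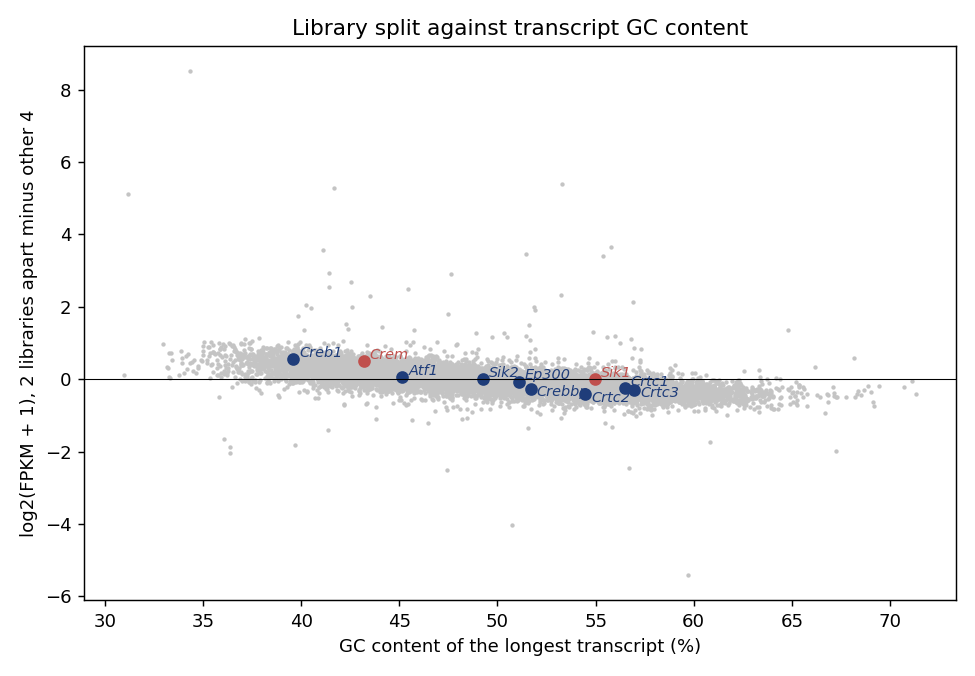
Mean log2(FPKM + 1) of wild-type replicate 1 and Tet1-deficient replicate 1 minus that of the other 4 libraries (y axis) against GC content of the longest transcript in percent (x axis), for tested genes (grey) and the 10 genes (named, with Crem and Sik1 in red). The grey cloud slopes down (r = -0.633), with Creb1 and Crem at its upper left, the 3 Crtc genes at the lower right and Sik1 near 0.

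Genes with the most similar values over the 6 libraries were ranked by Pearson r, used here only as a measure of likeness. For Crem, the 5 tested genes with the highest Pearson r of log2(FPKM + 1) were Zik1, Copb1, Ttbk2, Pum2 and Papola, at r of 0.995 to 0.998. All 5 were highest in the 2 libraries apart, as Crem was, so these coefficients mostly restate the split. For Sik1, the 5 were Nsg2, Map2k5, Dhrs1, Chrna7 and Elp3, at r of 0.953 to 0.982. Chrna7, a nicotinic acetylcholine receptor subunit gene, measured 20.4, 20.6 and 19.6 FPKM in the 3 wild-type libraries, against 19.4, 19.3 and 20.8 FPKM in the 3 Tet1-deficient ones, the same high and low libraries as Sik1. These coefficients describe 6 shared libraries, and each was picked as the highest among all tested genes.

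Sequences around the start sites were read to show which of the 10 genes, where a sequence was available, carry the core of the cAMP response element. The palindrome TGACGTCA and its core TGACG were searched on both strands in the RefSeq promoter windows of GRCm38.p6 (250 bases before to 50 after each start). Windows of 7 of the 10 genes were found: Creb1, Atf1, Crtc1, Crtc3, Crebbp, Ep300 and Sik2. Crem, Sik1 and Crtc2 had no window, so neither of the induced genes was searched. The palindrome, which contains the core, was in 0 of these 7 and in 1.79% of all 32851 windows. The core was in 2 of the 7, Atf1 and Sik2, and in 20.8% of all windows. Of the 30 listed genes with known induction through the element, 23 had a window, and 20 of these held the core and 6 the palindrome. These genes were listed for that induction, so the counts are no test of it. A gene was counted if any window under its symbol matched, whereas the shares of all windows count single windows. Fos is shown for comparison, with the core of its well-known element. In the lines below the core whose position is given is in capitals.

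Sik2, chr9:51009057-51009086, minus strand, core from 1 base before the start site: gccccggcccccTGACGtcggctcacgtca

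Atf1, chr15:100227757-100227786, plus strand, core from 90 bases before the start site: gtgaccacgcggTGACGcagcacgccggcg

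Fos, chr12:85473812-85473841, plus strand, core from 66 bases before the start site: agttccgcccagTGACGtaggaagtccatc

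A second core of Sik2, on the reverse strand, begins 12 bases after the start site and closes the Sik2 line in lower case. The stretch of Atf1 lies in a window of 77.3% GC and that of Sik2 in one of 80.0% GC. A match is a description of these letters, and no binding was measured. Between genotypes neither gene with a core passed the test.

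The wider pathway was described through 10 lists with 137 genes, of which 129 were tested. In limma 0 of the 129 passed the adjusted threshold in either direction, 2 had an unadjusted p under 0.05 (1.36% of all tested genes did), and 5 had groups that did not overlap (4.13% of all tested genes did), so both counts were near the background. Tet1-deficient hippocampus was higher for 62 of the 129 and lower for 67, where 52.9% of all tested genes were higher. The median log2 difference was -0.0056 against 0.0055 for all tested genes. Every adjusted p was 1.00. For each list below, the 2 tested genes with the smallest unadjusted p are named, by a rule that took them whatever their values.

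Upstream of CREB, 9 of 19 kinase genes were higher and 10 lower. Camk2a, the abundant calcium-activated kinase of excitatory synapses, measured 1208, 1192 and 1142 FPKM in the 3 wild-type libraries, against 1415, 1354 and 1339 FPKM in the 3 Tet1-deficient ones. The groups did not overlap, and the log2 difference was 0.21 (unadjusted p 0.0230, adjusted p 1.00). The summed level of the other 4 excitatory neuron markers ran from 776 to 853 FPKM in wild-type and from 844 to 857 FPKM in Tet1-deficient libraries, and its part in the Camk2a values was not tested. In bulk tissue fewer cells of a type and less RNA per cell cannot be told apart. Rps6ka3, which encodes the CREB kinase RSK2, had a log2 difference of 0.22 with overlapping groups. Camk2d, outside the naming rule, was the other kinase gene without overlap, with a difference of -0.19 (unadjusted p 0.120).

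Of 7 adenylyl cyclase genes, which make cAMP, 2 were higher and 5 lower. With GC content and length removed 4 were higher and 3 lower. The calcium-stimulated cyclase gene Adcy8 had a log2 difference of -0.14 and Adcy3 of -0.11. Among 8 genes of protein kinase A regulation 5 were higher and 3 lower, with Akap5, which anchors the kinase at synapses, at -0.059 and the regulatory subunit gene Prkar1b at -0.072. Of 11 tested cAMP phosphodiesterase genes 6 were higher and 5 lower, with Pde8b at 0.081 and Pde10a at 0.092. The cyclases and phosphodiesterases set the amount and reach of cAMP.

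Of 13 genes of phosphatases that act on CREB or Crtc proteins, with their regulators, 9 were higher and 4 lower. Without Tet1-deficient replicate 1, 6 were higher and 7 lower. The calcineurin subunit gene Ppp3cc measured 5.58, 5.84 and 5.80 FPKM in the 3 wild-type libraries, against 6.02, 6.78 and 6.23 FPKM in the 3 Tet1-deficient ones, without overlap and with a log2 difference of 0.12 (unadjusted p 0.195). Rcan1, a calcineurin inhibitor, had a difference of 0.096. Among 15 tested regulators and relatives of the Sik kinases 8 were higher and 7 lower, with the related kinase genes Mark3 at 0.084 and Nuak1 at -0.075. All 6 tested Ywha genes, whose adaptor proteins hold phosphorylated Crtc in the cytoplasm, were higher, with Ywhah at 0.052 and Ywhae at 0.049, and 0 of the 6 passed the test. With quantile normalization 4 of the 6 were higher, without wild-type replicate 3 only 1 was, and without Tet1-deficient replicate 1 only 2 were.

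Of 9 tested genes of further CREB and ATF factors 5 were higher and 4 lower, with Creb3l1, a membrane-bound factor, at -0.14 and Atf7 at -0.064. Of 12 tested genes of further acetyltransferases and partners of CBP and EP300, 1 was higher and 11 lower, with a median of -0.052 and 0 past the test. Without Tet1-deficient replicate 1, 7 were higher and 5 lower, and without wild-type replicate 3 the counts were 5 and 7. Ncoa1, a nuclear receptor coactivator gene, measured 27.4, 27.7 and 27.8 FPKM in the 3 wild-type libraries, against 26.5, 26.4 and 25.9 FPKM in the 3 Tet1-deficient ones, without overlap (log2 difference -0.071, unadjusted p 0.391). Cited2, which binds CBP and EP300, had a difference of -0.079. Crebbp and Ep300 were themselves at -0.067 and -0.078.

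Among 30 genes with known induction through the cAMP response element 11 were higher and 19 lower, with a median of -0.032. The balance turned to 18 higher without wild-type replicate 1, 19 higher without Tet1-deficient replicate 2, 19 higher in the 4 libraries and 21 higher with library weights. Pdyn, the prodynorphin gene, measured 8.04, 7.85 and 6.62 FPKM in the 3 wild-type libraries, against 5.32, 4.80 and 5.76 FPKM in the 3 Tet1-deficient ones. The groups did not overlap, and the log2 difference was -0.43 (SE 0.108, unadjusted p 0.00542, adjusted p 1.00 in limma). Cartpt, a neuropeptide gene near the filter, had a difference of 0.28 with overlapping groups. In the 2 libraries apart, 19 of the 30 lay higher than in the other 4, as Crem did, and the median difference was 0.24 on the log2 scale. Others lay lower, with Inhba at -1.41 and Vgf at -0.82. Over all tested genes the median size of this difference, whatever its sign, was 0.221. The share of all tested genes that lay higher is not given here, so the count of 19 has no background.

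**Figure D4:**
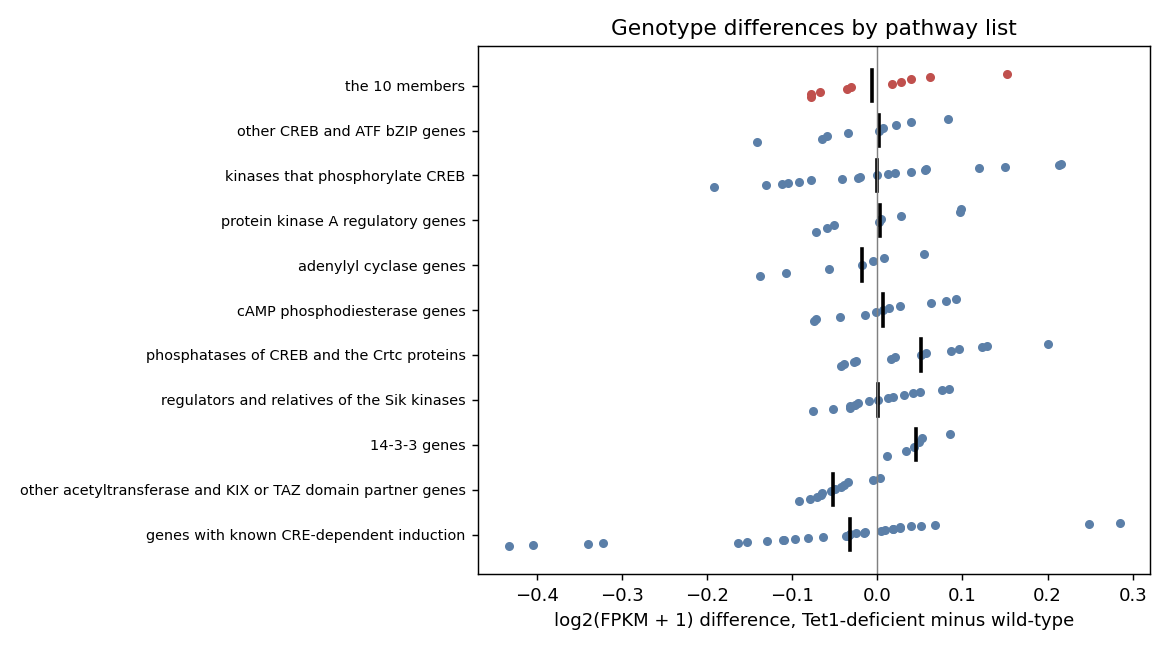
Difference in log2(FPKM + 1) between Tet1-deficient and wild-type hippocampus (x axis) for each tested gene (points) of the 10 pathway lists and for the 10 genes of the set (red), with the median of each as a black bar. The medians lie between -0.052 and 0.051, and the lowest point is Pdyn at -0.43.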

How the data were processed

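RNA of whole hippocampus was sequenced from 3 wild-type and 3 Tet1-deficient mice. The authors deposited gene-level FPKM values with a column for each library. TopHat2 2.0.9, Cufflinks 2.1.1 and the build mm10 are named in the submitters' processing notes. The sources used here give no annotation, strand setting or treatment of reads with several matches. Depth cannot be recovered from these values, so no counting interval is given.

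Values were taken as log2(FPKM + 1), which understates changes of low genes. Genes averaging 1 FPKM or more were fitted with limma 3.58.1 in R 4.3.3 (intensity trend, no covariate, two-sided, Benjamini-Hochberg over all tested genes, threshold 0.05). The limma script was tested on simulated data. Gene positions, GC content and length came from GENCODE M21. The 10 genes and all lists were chosen with earlier results of these data known. Named genes are the 10, Fos, the 2 smallest p of each list, and the 5 most correlated with Crem and with Sik1; Sik3, Camk2d, Xist and Tet1 were named outside this rule. Alternatives were another pseudocount, no filter, other scalings, no trend, library weights, a threshold of 0.1, each library left out, and 3 added later (split as a term, 4 libraries alone, GC content and length removed).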

Additional observations from a re-analysis of the deposited data

How the results depend on the processing

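In each of the 15 alternative fits 0 of the 10 genes and 0 of the 129 pathway genes passed the threshold of 0.05. The lowest adjusted p of the 10 in these fits was 0.354 (Crebbp with library weights, limma). The threshold of 0.1 was applied to the main fit only, and both counts were 0 there too. The signs of the small differences were not stable, and 3 genes (Crebbp, Ep300, Sik2) kept theirs. Crebbp came close to 0 without wild-type replicate 2 (-0.0005) and without wild-type replicate 3 (-0.0026). With library weights the log2 difference was -0.023 for Creb1, -0.064 for Crem, -0.083 for Atf1, -0.028 for Crtc1 and 0.050 for Sik1. In the 4 libraries without the 2 apart it was -0.019 for Creb1, -0.013 for Crem, -0.0017 for Atf1, -0.015 for Crtc1, 0.0055 for Crtc3 and 0.0071 for Sik1. With GC content and length removed it was -0.039 for Creb1, 0.0019 for Crtc2 and 0.0012 for Crtc3. With 1 library left out it ran from -0.18 to 0.18 for Creb1, -0.14 to 0.20 for Crem, -0.032 to 0.083 for Atf1, -0.072 to 0.097 for Crtc1, -0.21 to 0.10 for Crtc2 and -0.19 to 0.084 for Crtc3, -0.20 to -0.0005 for Crebbp, -0.13 to -0.026 for Ep300, -0.16 to -0.032 for Sik1 and 0.080 to 0.27 for Sik2. Against 4 of all tested genes, 59 passed with library weights, 8 with the split as a term, 12 in the 4 libraries and 0 to 6 with 1 library left out. The causes were not tested. No paired analysis was possible because the replicate numbers are only names. The 11 planned correlations are not given, since the libraries form clusters under 6. Of 90 alternative percentiles of spread, 10 moved by 10 points or more. Precision is limited by 3 libraries a genotype and unknown depth.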
